A study of Mus musculus with 2 samples.

Results

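The genes described here were those that govern the first gap phase (G1) of the cell cycle: the D-type cyclins Ccnd1, Ccnd2 and Ccnd3, their kinase partners Cdk4 and Cdk6, the CDK inhibitors Cdkn1a, Cdkn1b, Cdkn1c and Cdkn2c, and the transcription factor gene Myc. They were chosen by symbol, and all 10 were found among the 27998 genes listed for the mammary epithelium of adult FVB/NJ mice. Female mice of 10 weeks provided the cells for 2 libraries on the 10X Chromium platform, each 1 pool from 4 mice, with no treatment given in the labels. One library held 3302 total epithelial cells, sorted as Lin-CD24+, and the other held 4771 basal cells, sorted as Lin-CD29hiCD24+. Cells of the total epithelium were placed in 3 classes by summed counts of a few lineage genes. A cell with 10 or more counts of Krt5, Krt14 and Acta2 was called basal, and any other cell with 10 or more counts of Prlr, Stc2 and Gpx3 was called mature luminal (ML). Of the cells left over, those with 3 or more counts of Krt8, Krt18 and Krt19 were called luminal progenitor (LP). This gave 1306 basal, 766 LP and 1133 ML cells, and 97 cells met no rule and are called the remaining cells.

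In G1, mitogens and hormones induce D-type cyclins, which bind CDK4 or CDK6 and start the phosphorylation of the retinoblastoma protein, so that E2F factors can turn on genes of DNA replication. INK4 proteins such as p18 (from Cdkn2c) bind the kinases themselves, whereas CIP/KIP proteins (p21, p27 and p57, from Cdkn1a, Cdkn1b and Cdkn1c) bind cyclin-kinase complexes, and MYC drives cell growth and opposes the inhibitors. In the mammary gland cyclin D1 is required for alveolar growth in pregnancy, and steroid hormones reach the ML cells, which carry the estrogen and progesterone receptors.

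Levels were summed counts of unique molecular identifiers (UMIs), 1 per captured transcript, given as CPM, the counts divided by all UMIs of the class and scaled to 1000000, with exact Poisson 95% intervals. Because 1 tag is read at the 3' end of each transcript, CPM does not grow with transcript length, and genes could be compared with each other as numbers of captured molecules, although capture may differ between genes. With 1 library per sort there was no test. Intervals cover counting error only, and the spread between mice cannot be seen in a pool. A gene was called different between 2 classes where its CPM differed 2-fold or more and it had 100 or more counts over the classes. Between the classes 9 members passed that filter, while Cdk6, with 62 counts, did not.

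The basal class had 2776233 UMIs with a median of 1838.5 per cell, the LP class 2158548 with 2483.5, and the ML class 4132895 with 3403. The sorted basal library was shallower, with 2488704 UMIs and a median of 487 per cell. The 2 libraries had 28 cell barcodes in common. The class names held up against markers that the rules did not use. The summed level of 10 basal markers was 25353 CPM in the basal class against 196 in LP and 104 in ML, that of 10 LP markers was 73577 CPM in LP against 4969 in basal and 7005 in ML, and that of 10 ML markers was 8640 CPM in ML against 388 in basal and 842 in LP. Free or mixed RNA can carry a gene's UMIs into another class. For single markers the level outside their class was 0.268 to 8.88% of that inside for basal markers in LP (median 0.615%), 0.123 to 2.13% for basal markers in ML, 1.02 to 33% for LP markers in basal (median 4.41%), and 3.17 to 23.7% for ML markers in basal. The ML class also held fibroblast signal, 1419 CPM over 6 markers against 363 in basal and 83.4 in LP, and 288 counts of the collagen gene Col3a1 came from 17 of its 1133 cells. Blood cell markers were at 0 in ML, and Ptprc, which marks all white cells, was at 0 in every class. As a measure of background in shares of cells at equal depth (1000 UMIs per cell), the basal gene Trp63, which no rule used, had a UMI in 7.18% of basal, 0.138% of LP and 0.0900% of the ML cells, and the LP gene Elf5 in 0.797, 26.2 and 2.25%.

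The D-type cyclins differed most in which paralog was present. All members are annotated as protein-coding, and positions are those of the whole gene in GRCm38. Among the 3 classes, Ccnd2 (chr6:127125162-127152193, minus strand) was nearly confined to basal cells: it had 263 counts in the basal class, 1 in LP and 2 in ML. This was 94.7 CPM (83.6 to 107) in basal cells, 0.463 (0.0117 to 2.58) in LP and 0.484 (0.0586 to 1.75) in ML. The level was 204-fold higher in basal than in LP cells (36.4 to 8107) and 196-fold higher than in ML cells (53.7 to 1625). After each cell was thinned to 1000 UMIs, 7.66% of basal cells (96 of 1254) had a Ccnd2 UMI, 0 of 725 LP cells did, which allows a share of up to 0.508%, and 1 of 1111 ML cells did. Without thinning the shares were 12.8, 0.131 and 0.177%. The remaining cells, which met no class rule, had 93.8 CPM (52.5 to 155) of Ccnd2, close to the basal level. Trp63, a basal transcription factor gene, had 205, 1 and 2 counts in the same classes, and the source of the 3 luminal counts of Ccnd2 was not tested.

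Ccnd1 (chr7:144929931-144939925, minus strand), the cyclin gene best known from breast cancer, had the opposite order. It had 86 counts in basal, 265 in LP and 412 in ML, or 31.0 CPM (24.8 to 38.3), 123 (108 to 138) and 99.7 (90.3 to 109.8). LP cells were 3.96-fold above basal cells (3.10 to 5.12) and ML cells 3.22-fold (2.55 to 4.11), while LP and ML differed by only 1.23-fold (1.05 to 1.44). At 1000 UMIs per cell, 2.07% of basal, 11.3% of LP and 9.36% of the ML cells had a Ccnd1 UMI, against 4.82, 22.1 and 24.5% without thinning. The basal level was 25.2% of that in LP, inside the range of LP markers in basal (1.02 to 33%) and above their median (4.41%). Of these markers, Elf5 stood at 19.5 CPM in basal and 374 in LP cells. When basal cells with many luminal counts were left out, the log2 ratio of basal to LP moved from -1.99 to -2.40, and with cells thinned it was -2.63. The part of luminal RNA in the remaining basal signal was not tested.

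Ccnd3 (chr17:47505051-47599691, plus strand), the D-type cyclin with the broadest tissue range, varied little. It had 82.1 CPM (71.8 to 93.5) in basal, 62.5 (52.4 to 74.0) in LP and 84.9 (76.3 to 94.3) in ML cells, and no pair of classes differed 2-fold. The order of basal and ML was within counting error, with a ratio of 0.967 (0.815 to 1.15). At 1000 UMIs per cell, 7.34% of basal, 6.48% of LP and 7.83% of the ML cells had a Ccnd3 UMI.

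Summed over the 3 paralogs, the D-type cyclin level was nearly even. It was 208 CPM (191 to 226) in basal, 186 (168 to 205) in LP and 185 (172 to 199) in ML. The ratio of basal to LP was 1.12 (0.983 to 1.27), that of basal to ML 1.12 (1.01 to 1.25) and that of LP to ML 1.004 (0.887 to 1.13). The make-up turned over beneath this sum. Ccnd2 gave 45.6% of D-type cyclin counts in basal cells, but 0.249% in LP and 0.261% in ML. Ccnd1 gave 14.9% in basal, 66.1% in LP and 53.9% in ML, and Ccnd3 gave 39.5, 33.7 and 45.9%. At 1000 UMIs per cell, 83.9% of basal, 83.0% of LP and 83.5% of the ML cells had no UMI of any D-type cyclin, and 0.957, 0.828 and 0.810% had UMIs of a pair of them. In the basal class 2 cells held both Ccnd1 and Ccnd2, and independent detection would give 1.99.

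**Figure D1:**
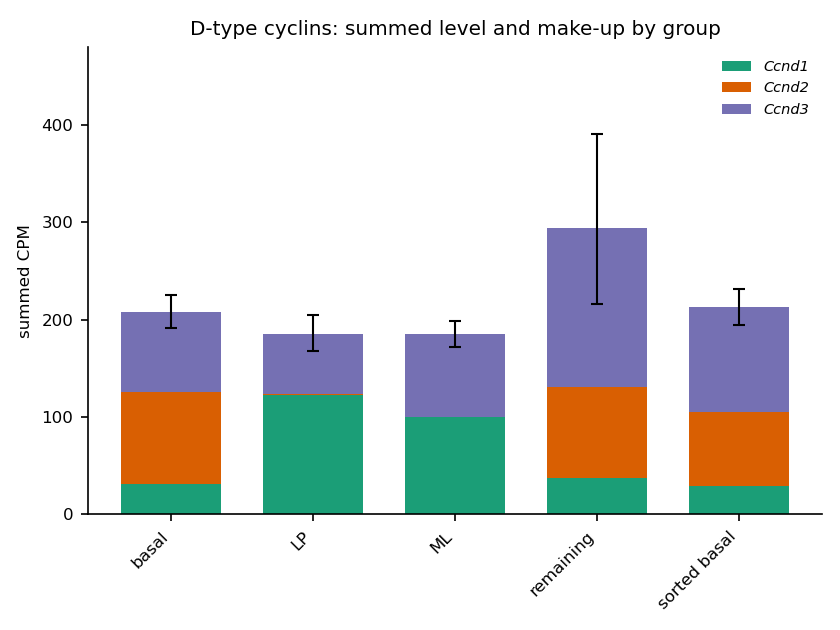
Stacked bars give the summed CPM of Ccnd1, Ccnd2 and Ccnd3 in the 3 classes, the remaining cells and the sorted basal library, with exact Poisson 95% intervals on the sums. The sums of the 3 classes lie between 185 and 208 CPM, with Ccnd2 present in the basal bar and nearly absent from the LP and ML bars.

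The kinase genes were unequal in level in every class. Cdk4 (chr10:127063534-127067920, plus strand) had 880, 442 and 1540 counts in basal, LP and ML cells, and Cdk6 (chr5:3341485-3531008, plus strand) had 14, 32 and 16. Cdk4 therefore gave 98.4, 93.2 and 99.0% of the counts of the pair. Its level was 317 CPM (296 to 339) in basal, 205 (186 to 225) in LP and 373 (354 to 392) in ML, so that ML was 1.82-fold above LP (1.64 to 2.03), short of the 2-fold limit, and basal lay between them with intervals that met neither neighbour. The log2 ratio of LP to ML was -0.86, and it ranged from -1.03 to -0.50 over the alternative settings. The value of -1.03, past 2-fold, came when LP was limited to cells with 2 or fewer ML counts. Cdk6 had 14.8 CPM (10.1 to 20.9) in LP, 5.04 (2.76 to 8.46) in basal and 3.87 (2.21 to 6.29) in ML cells, and the ratio of LP to ML was 3.83 (2.04 to 7.47). When ML cells with 3 or more counts of the LP genes Csn3, Cd14 and Plet1 were left out (314 of 1133), the log2 ratio of LP to ML for Cdk6 moved from 1.94 to 4.28. Most Cdk6 counts of the ML class thus came from cells that also carried LP genes.

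Cdk4 overlaps Tspan31 on the opposite strand, which had 347, 330 and 1117 counts in basal, LP and ML cells. How the counting treated strand is not given in the sources used here, so reads of the 2 genes may not be fully told apart. Ccnd3 likewise overlaps Bysl (103, 41 and 88 counts), and Ccnd1 overlaps LTO1 (5, 18 and 44 counts).

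Promoter sequences from RefSeq (GRCm38.p6) were found for 6 of the members, and are shown for the kinase gene and the inhibitor gene with the highest levels, because the lists of MYC-bound and p53 target genes below bear on them. Capitals mark CACGTG, the E-box that MYC-MAX dimers can bind and that reads the same on both strands, in Cdk4, and a match to the p53 site consensus of 20 bases, with at most 1 mismatch, in Cdkn1a. RefSeq lists 2 starts for Cdkn1a, and the window of the other, at chr17:29093519-29093818, had no match. Both sequences are the 250 bases before an annotated start, 5′ to 3′ on the plus strand, at chr10:127063285-127063534 for Cdk4 and chr17:29090729-29090978 for Cdkn1a.
Cdk4: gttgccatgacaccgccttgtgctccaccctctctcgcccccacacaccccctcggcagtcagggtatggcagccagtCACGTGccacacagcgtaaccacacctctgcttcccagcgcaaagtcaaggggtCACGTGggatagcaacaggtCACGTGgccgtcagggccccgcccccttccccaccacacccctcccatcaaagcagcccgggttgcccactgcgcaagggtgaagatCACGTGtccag
Cdkn1a: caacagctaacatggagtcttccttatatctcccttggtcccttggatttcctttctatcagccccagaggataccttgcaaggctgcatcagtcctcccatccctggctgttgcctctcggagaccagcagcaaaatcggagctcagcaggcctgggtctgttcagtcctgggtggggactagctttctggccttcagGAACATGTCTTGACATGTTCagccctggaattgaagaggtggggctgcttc
Cdk4 had 4 E-boxes. Of 32851 promoter windows of 300 bases, 7.15% had at least 1 and 8 windows (0.0244%) had 4 or more. A window matching the p53 consensus was found in 0.0883% of promoters. These are descriptions of letters, and binding was not measured. Among the classes, Cdk4 was highest in ML cells and Myc was lowest there, and a link between the 2 genes was not tested.

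Cdkn1a (chr17:29090976-29100727, plus strand), which encodes p21, was by far the leading CIP/KIP gene and was highest in basal and LP cells. It had 1760 counts in basal, 1198 in LP and 752 in ML, or 634 CPM (605 to 664), 555 (524 to 587) and 182 (169 to 195). The level was 3.48-fold higher in basal than in ML cells (3.20 to 3.80) and 3.05-fold higher in LP than in ML cells (2.78 to 3.35). Basal and LP cells differed by 1.14-fold (1.06 to 1.23), and this small difference changed sign when classes were scaled by the median of gene ratios (log2 ratio 0.19 as counted and -0.02 so scaled). At 1000 UMIs per cell, 41.7% of basal, 36.0% of LP and 15.3% of the ML cells had a Cdkn1a UMI, against 59.5, 58.6 and 32.3% without thinning. Without ML cells that carried LP genes, the log2 ratio of LP to ML moved from 1.61 to 1.97.

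Cdkn1c (chr7:143458339-143461050, minus strand), the imprinted gene of p57, was highest in basal cells among the 3 classes, at a lower level than Cdkn1a. In the remaining cells its level was higher than in basal, at 156 CPM (101 to 231). Cdkn1c had 136 counts in basal, 7 in LP and 21 in ML, or 49.0 CPM (41.1 to 57.9), 3.24 (1.30 to 6.68) and 5.08 (3.15 to 7.77). Basal cells were 15.1-fold above LP (7.14 to 38.3) and 9.64-fold above ML cells (6.06 to 16.1). The ML level was 10.4% of the basal level, beyond the range of basal markers in ML. The LP level was 6.62%, inside their range in LP, where Oxtr was highest at 8.88% and the median was 0.615%. Leaving out cells with collagen counts, an alternative chosen after the data were seen, moved the log2 ratio of basal to ML from 3.27 to 3.48.

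Cdkn1b (chr6:134920401-134925513, plus strand), which encodes p27, was counted rarely. It had 49, 25 and 45 counts in basal, LP and ML cells, or 17.6 CPM (13.1 to 23.3), 11.6 (7.50 to 17.1) and 10.9 (7.94 to 14.6). The intervals of all 3 classes overlapped, and the log2 ratio of basal to LP ran from -0.21 to 0.79 over the alternative settings, so no order was detectable at this depth. Summed, the CIP/KIP genes came to 701 CPM in basal, 570 in LP and 198 in ML, of which Cdkn1a gave 90.5, 97.4 and 91.9%.

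Cdkn2c (chr4:109660876-109667189, minus strand), the INK4 gene of p18, had the reverse order to Cdkn1c. It had 22 counts in basal, 68 in LP and 62 in ML, or 7.92 CPM (4.97 to 12.0), 31.5 (24.5 to 39.9) and 15.0 (11.5 to 19.2). LP cells were 3.98-fold above basal (2.43 to 6.75) and 2.10-fold above ML cells (1.47 to 3.01). The second, a log2 ratio of 1.07, ran from 0.66 to 1.46 over the alternative settings and missed 2-fold in 4 of them, with 0.98 when LP was limited to cells with 2 or fewer ML counts and 0.79 without the deepest 5% of cells. Cdkn2d, the related INK4 gene of p19, was no member but ran the other way, with 67.7 CPM (58.4 to 78.1) in basal, 13.0 (8.62 to 18.7) in LP and 24.2 (19.7 to 29.4) in ML cells. Of all INK4 counts, Cdkn2c gave 10.2% in basal, 70.8% in LP and 32.8% in ML, and Cdkn2d 87.0, 29.2 and 52.9%. Cdkn2a and Cdkn2b were near the floor, with 3 counts each in basal, 0 each in LP, and 17 and 10 counts in ML.

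Myc (chr15:61985391-61990374, plus strand) was the member with the highest basal level and differed between all 3 classes, highest in basal and lowest in ML. It had 1983 counts in basal, 662 in LP and 545 in ML, or 714 CPM (683 to 746), 307 (284 to 331) and 132 (121 to 143). Basal cells were 2.33-fold above LP (2.13 to 2.55) and 5.42-fold above ML cells (4.92 to 5.97), and LP cells were 2.33-fold above ML (2.07 to 2.61). At 1000 UMIs per cell, 44.3% of basal, 24.1% of LP and 10.6% of the ML cells had a Myc UMI, against 62.0, 41.3 and 27.0% without thinning. The MYC paralogs divided between the lineages at far lower levels. Mycn had 36, 1 and 1 counts in basal, LP and ML cells, while Mycl had 1.80 CPM in basal, 3.71 in LP and 36.8 in ML, a level 20.4-fold higher in ML than in basal (8.56 to 63.8) and 9.92-fold higher than in LP cells (4.91 to 23.4). Mycl gave 21.8% of MYC paralog counts in ML cells, against 0.247% in basal and 1.19% in LP.

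**Figure D2:**
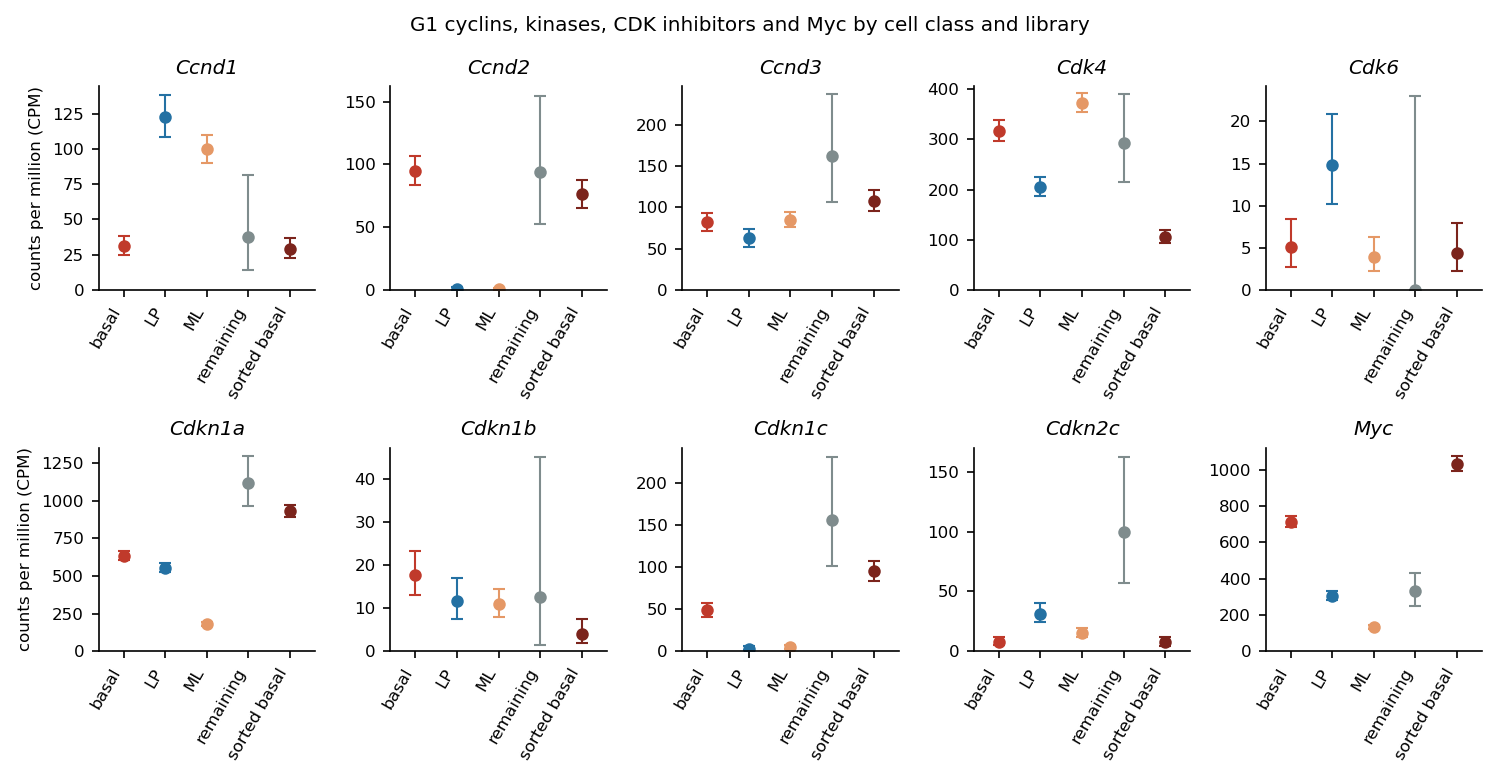
Each panel is 1 member, with its level in CPM in the 3 classes, the remaining cells and the sorted basal library, and bars for exact Poisson 95% intervals. Ccnd2 and Cdkn1c are near 0 in LP and ML and higher in the basal class, the sorted basal library and the remaining cells, Ccnd1 is highest in LP and ML, and Cdkn1a and Myc are lowest in ML.

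**Figure D3:**
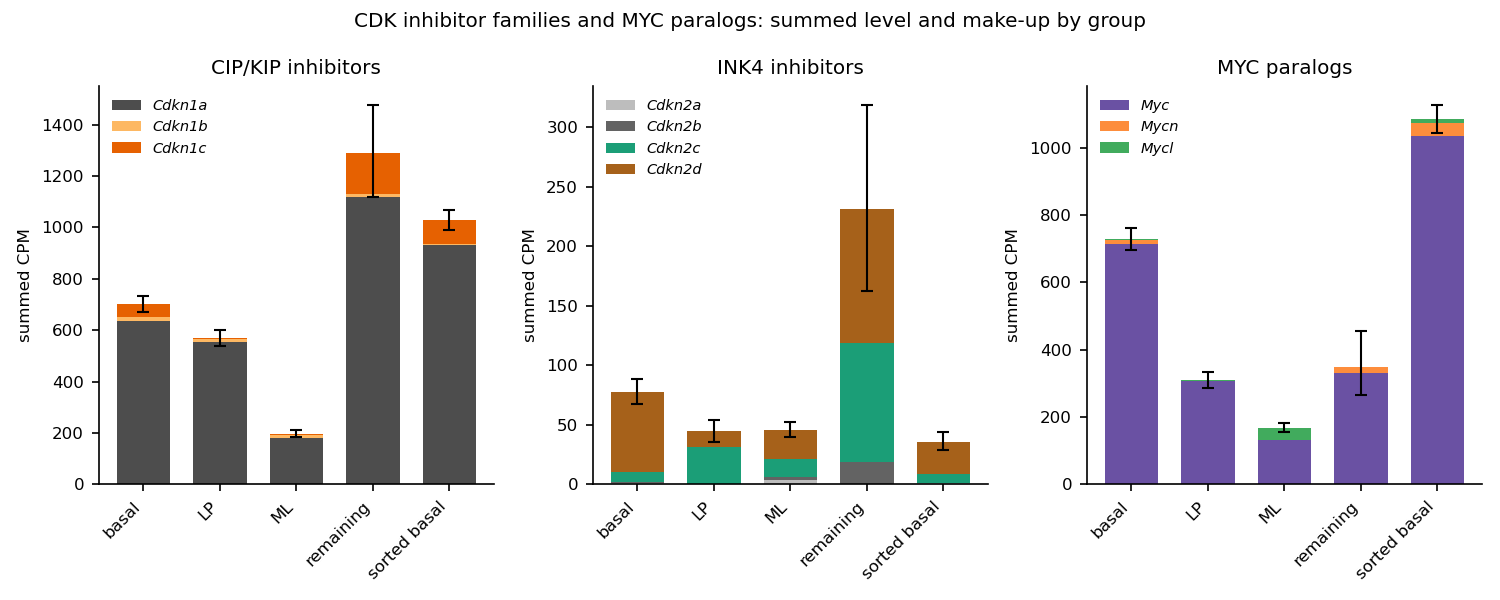
Stacked bars give the summed CPM of the CIP/KIP inhibitors, the INK4 inhibitors and the MYC paralogs in each group, with exact Poisson 95% intervals on the sums. Cdkn1a fills 90.5 to 97.4% of the CIP/KIP bars of the 3 classes, Cdkn2d gives way to Cdkn2c in the LP bar, and Mycl appears in the ML bar.

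Counted over the 9 members that passed the filter, differences of 2-fold or more were as follows. Between basal and LP cells, Ccnd2, Cdkn1c and Myc were higher in basal (3 of 9, against 16.9% of 7189 genes), and Ccnd1 and Cdkn2c were higher in LP (2 of 9, against 11.2%). Between basal and ML cells, Ccnd2, Cdkn1a, Cdkn1c and Myc were higher in basal (4 of 9, against 15.6%), and Ccnd1 was higher in ML (1 of 9, against 17.8%). Between LP and ML cells, Cdkn1a, Cdkn2c and Myc were higher in LP (3 of 9, against 9.42%), and no member was higher in ML (0 of 9, against 15%). With LP limited to cells with 2 or fewer ML counts, Cdk4 was past 2-fold higher in ML and Cdkn2c was no longer past it. The median log2 ratio of all genes was 0.16 for basal against LP, -0.11 for basal against ML and -0.29 for LP against ML. The medians over the 9 members were 0.61 for basal against LP and 0.70 for basal against ML, and none was formed for LP against ML, where Ccnd2 had no ratio.

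**Figure D4:**
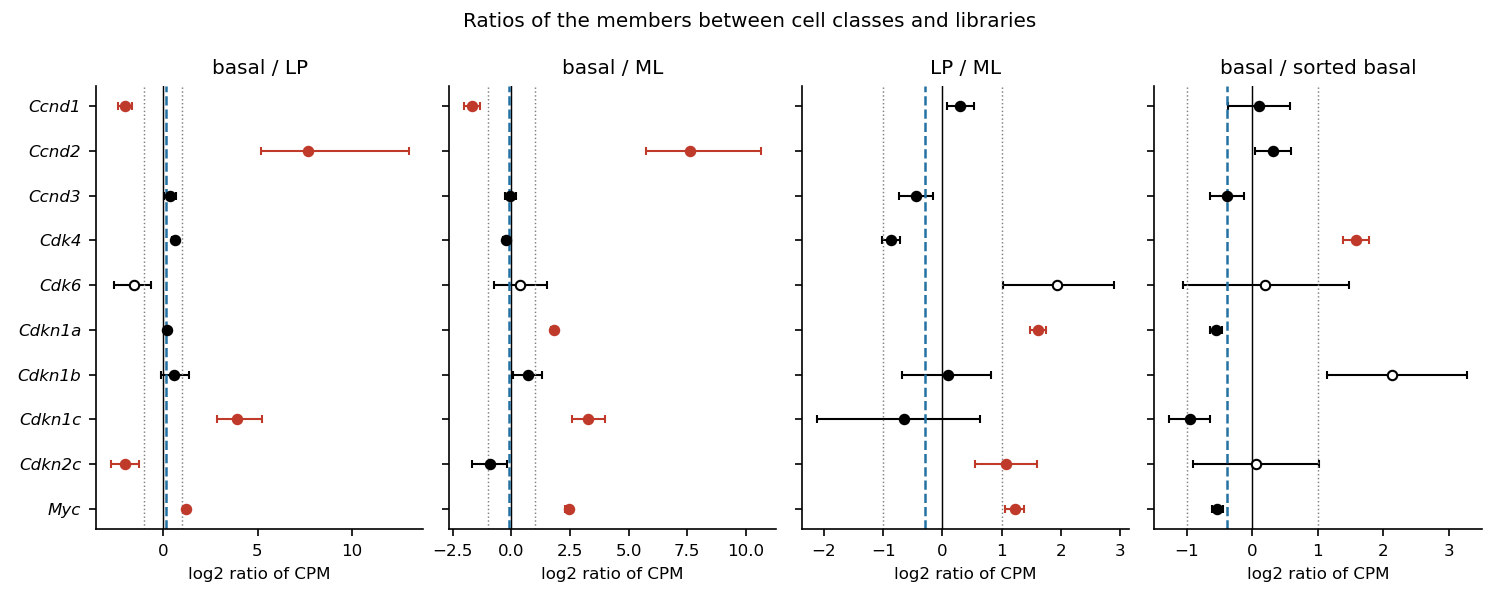
Points give the log2 ratio of CPM of each member for basal over LP, basal over ML, LP over ML and basal over sorted basal, with 95% counting intervals, in red where the ratio is past 2-fold (dotted lines) and open where the gene missed the count filter. The dashed blue line is the median of all genes tested, which lies at 0.16, -0.11, -0.29 and -0.39, and Ccnd2 is absent from the LP over ML panel because both levels are at the floor.

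The sorted basal library gave a second view of the basal members, from other cells and at lower depth, so that library and sort cannot be told apart. By the rule above, 1758 of its cells met the basal threshold and 2811 met none. Its D-type cyclins were close in level to those of the basal class. Ccnd2 had 75.9 CPM (65.5 to 87.6), Ccnd1 28.9 (22.6 to 36.4) and Ccnd3 108 (95.2 to 121), which sum to 213 CPM, and the ratio of basal to sorted basal for the sum was 0.978 (0.867 to 1.10). Cdkn1a had 929.8 CPM (892 to 968), Myc 1036 (996 to 1076) and Cdkn1c 94.8 (83.1 to 107.7), which were 1.47-fold, 1.45-fold and 1.94-fold above the basal class of the total epithelium. On the log2 scale these ratios of basal to sorted basal were -0.55, -0.54 and -0.95, where the median of all genes was -0.39. Cdk4 went the other way. It had 264 counts, or 106 CPM (93.7 to 120), in the sorted library, and the basal class of the total epithelium was 2.99-fold higher (2.60 to 3.44). At 300 UMIs per cell, 8.65% of basal cells of the total epithelium and 2.29% of sorted basal cells had a Cdk4 UMI. Its log2 ratio was 1.58 as counted and lay between 1.46 and 2.01 over the alternative settings. Tspan31, which overlaps it, had 347 and 194 counts.

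Of the 7 members that passed 100 counts in this comparison, Cdk4 was higher in the total epithelium (1 of 7, against 18% of 6143 genes) and none was higher in the sorted library (0 of 7, against 27%). Cdkn1b had 49 and 10 counts, a ratio of 4.39 (2.20 to 9.73) that rested on fewer than 100 counts, and Cdkn2c had 22 and 19. In the directions of Ccnd2 and Ccnd3 the 2 libraries did not settle: their log2 ratios of 0.32 and -0.39 as counted became 0.75 and 0.04 after scaling by the median of gene ratios, and -0.03 and -0.77 at 300 UMIs per cell. Fibroblast markers summed to 605 CPM in the sorted library against 363 in the basal class, and without cells that carried collagen counts the log2 ratios of Ccnd2, Ccnd3 and Cdk4 were 0.29, -0.38 and 1.58.

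Within a class, UMIs of Cdkn1a and Myc varied more between cells than those of Cdk4. At 1000 UMIs per cell, 58.3% of basal cells had no Cdkn1a UMI and 5.74% had 3 or more, and the variance was 1.49 times the mean. In LP cells 6.34% had 3 or more, with a variance 1.87 times the mean. For Myc, 6.06% of basal, 2.07% of LP and 0.540% of the ML cells had 3 or more UMIs, with variances 1.62, 1.53 and 1.45 times the mean. Cdk4 stayed near the value of 1 that random sampling gives, at 1.12, 1.10 and 1.03. Basal cells with both Cdkn1a and Myc numbered 228, where independent detection would give 231. Both Cdkn1a and Ccnd2 were found in 51 basal cells, with 40.0 given by independence. Several other pairs were counted, and Ccnd1 with Myc went the other way, in 6 basal cells against 11.5. Cells share a library, and no test was made over them.

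**Figure D5:**
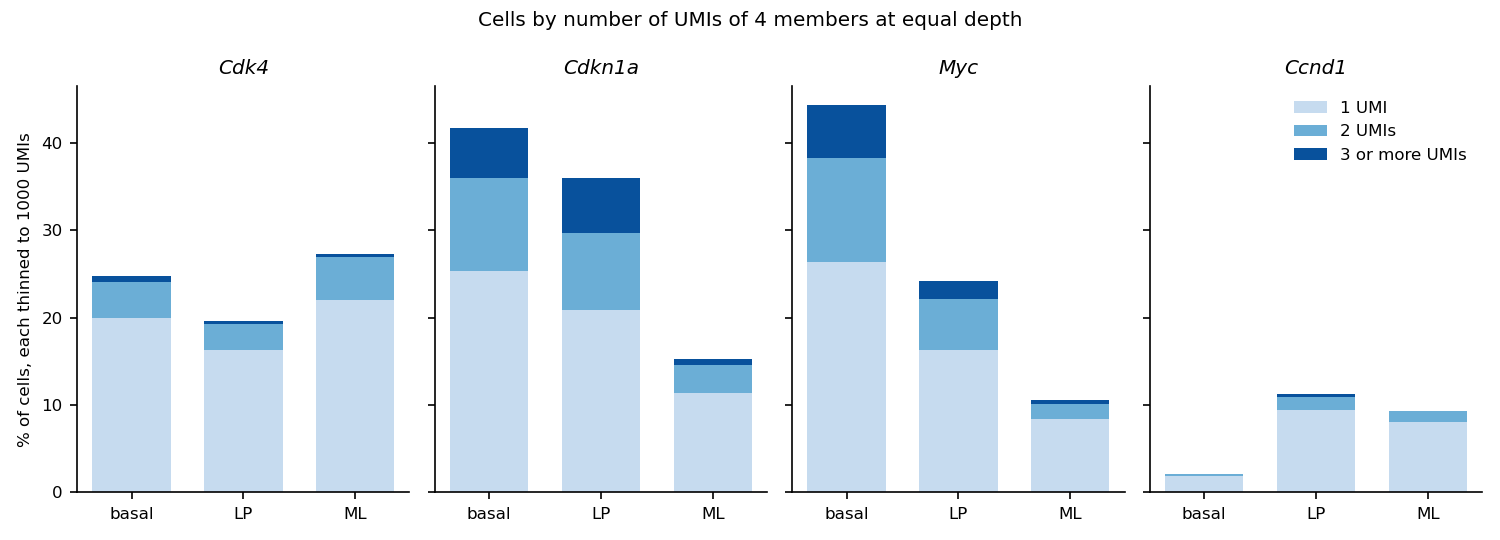
Stacked bars give the percentage of basal, LP and ML cells with 1, 2 or at least 3 UMIs of Cdk4, Cdkn1a, Myc and Ccnd1 after each cell was thinned to 1000 UMIs, and the rest of the cells had none. Basal and LP bars for Cdkn1a reach 41.7 and 36.0%, the Myc bars reach 44.3% in basal and 10.6% in ML, and the Cdk4 bars lie between 19.6 and 27.3%.

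Myc and Cdkn1a were higher in basal and LP cells with more counts of immediate-early genes, which tissue dissociation can induce, but not detectably so in ML cells. Of 8 such genes, Egr1 was higher in basal than in LP and than in ML, Junb was higher in basal than in ML, and Jun was higher in ML than in basal. Each class was divided at its median share of counts from the 8 genes. In basal cells Myc had 603 CPM (564 to 644) in the lower part and 839 (790 to 891) in the upper, and Cdkn1a had 571 (533 to 611) and 705 (660 to 752). In LP cells Myc had 273 CPM (245 to 304) in the lower and 352 (315 to 393) in the upper part, and Cdkn1a had 470 CPM (433 to 510) in the lower and 671 (619 to 726) in the upper part. In ML cells Myc had 143 CPM (127 to 161) in the lower and 121 (106 to 137) in the upper part, and Cdkn1a had 171 (154 to 190) and 192 (174 to 212), and both pairs of intervals overlapped. Between classes, among lower cells alone, the log2 ratio was 2.07 for Myc in basal against ML and 1.46 for Cdkn1a in LP against ML. The same setting took the LP to ML log2 ratio of Myc to 0.93, below the 2-fold limit. Cells of the lower LP part were also deeper, with a median of 2850 UMIs against 2196. The part of dissociation in these levels was not tested.

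Of 12 other listed genes of the G1/S engine, 7 passed the filter. Of these, 3 of 7 were at least 2-fold higher in basal than in LP (Ccne1, Cdk2 and Cdkn2d, against 16.9% of all genes), and 2 of 7 were so against ML (Ccne1 and Cdkn2d, against 15.6%). None was 2-fold higher in LP than in basal (against 11.2%) or in ML than in basal (against 17.8%). The median log2 ratio was 0.88 against LP and 0.38 against ML, where all genes had 0.16 and -0.11, and 2 genes lay on the ML side, Cdk5 at -0.48 and Mnat1 at -0.23. Ccne1, the cyclin E gene that acts with CDK2 after the D-type cyclins, had 51.9 CPM (43.7 to 61.1) in basal, 3.24 (1.30 to 6.68) in LP and 2.18 (0.996 to 4.13) in ML cells, and 62.7 (53.2 to 73.3) in the sorted basal library. Ccne2 had 5, 3 and 0 counts. Among the pocket proteins and E2F factors, 4 of 13 passed the filter. Of these, 1 of 4 was higher in LP than in basal (against 11.2% of all genes) and than in ML (against 9.42%). Likewise 1 of 4 was higher in basal than in LP (against 16.9%) and than in ML (against 15.6%). Rb1, the substrate of the D-type cyclin kinases, was 4.94-fold higher in LP than in basal (2.95 to 8.67) and 4.37-fold higher than in ML cells (2.85 to 6.84), at 33.8 CPM (26.5 to 42.5) in LP, and Tfdp2, an E2F partner, was 2.82-fold higher in basal than in LP (1.94 to 4.17) and 2.62-fold higher than in ML (1.97 to 3.53). Of 6 genes for turnover of cyclins and inhibitors that passed, Fbxo31 alone was past 2-fold between the classes. It was 2.36-fold higher in ML than in basal (1.74 to 3.26), which is 1 of 6 against 17.8% of all genes.

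Around Myc, 7 genes of its wider network passed the filter. Between basal and ML, Mxd4 was higher in basal (1 of 7, against 15.6% of all genes). Mlx and Mycl were higher in ML (2 of 7, against 17.8%). Max, the obligate partner, had 208, 201 and 173 CPM in basal, LP and ML cells. Mxd4, a MAX-binding repressor, was 2.31-fold higher in basal than in ML (1.88 to 2.85), and Mlx was 2.13-fold higher in ML than in basal (1.58 to 2.89). Of 12 growth and ribosome biogenesis genes that MYC binds, 11 passed the filter. Against LP, 4 of 11 were higher in basal (Nop58, Odc1, Cad and Mybbp1a, against 16.9% of all genes) and none was 2-fold lower (against 11.2%). Against ML, 4 of 11 were higher in basal (Nop58, Odc1, Nolc1 and Gnl3, against 15.6%) and Cad was lower (1 of 11, against 17.8%). Their median log2 ratio was 0.94 against LP and 0.70 against ML, where all genes had 0.16 and -0.11. Nop58, a nucleolar protein gene, had 734 CPM in basal, 154 in LP and 145 in ML, or 4.76-fold (4.23 to 5.36) and 5.06-fold (4.62 to 5.55) higher in basal. Between LP and ML, 0 of these 11 genes were higher in LP (against 9.42% of all genes). Cad was higher in ML (1 of 11, against 15%). Their median log2 ratio for this pair was 0.15, where all genes had -0.29.

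The gene of p53, Trp53, and genes known as its targets were divided between the classes. Of 12 listed genes 10 passed the filter. Trp53 itself was past 2-fold in no pair, at 250.7 CPM in basal, 140.4 in LP and 146 in ML. Phlda3, a p53-induced inhibitor of AKT, had 223 CPM in basal, 16.7 in LP and 41.6 in ML, and Mdm2, the ligase that degrades p53, had 237, 64.4 and 82.3. Trp53inp1 was 7.37-fold higher in ML than in basal (5.06 to 11.1), and Gadd45a was 2.45-fold higher in ML than in basal (2.22 to 2.71) and 2.68-fold higher than in LP (2.39 to 3.01). Between basal and ML, 3 of 10 were higher in basal (against 15.6% of all genes) and 3 of 10 in ML (against 17.8%). The median log2 ratio was -0.09 where all genes had -0.11. Between basal and LP, 3 of 10 were higher in basal (against 16.9%) and 1 of 10 in LP (against 11.2%). The median was 0.57 where all genes had 0.16. Between LP and ML, 1 of 10 was higher in LP (against 9.42%) and 4 of 10 in ML (against 15%). The median was -0.43 where all genes had -0.29. Sesn2, a stress-induced p53 target, had the class order of Cdkn1a, with 34.2 CPM in basal, 25.9 in LP and 11.6 in ML, and was 2.23-fold higher in LP than in ML (1.49 to 3.36), whereas Phlda3 and Mdm2 were lower in LP than in ML.

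Of 12 antiproliferative genes all passed, and 7 of 12 were higher in LP than in ML, Ndrg1 and Tob2 among them (against 9.42% of all genes), and 1 was lower (against 15%), with a median log2 ratio of 1.51 against -0.29 for all genes. Gas1, a growth arrest gene, was mostly basal, with 616 CPM in basal, 14.4 in LP and 4.11 in ML. Gadd45g was the gene higher in ML than in LP, at 1832 CPM against 350, with 683 in basal cells. Between basal and ML, 6 of 12 were higher in basal (against 15.6%), and Gadd45g and Klf6 in ML (2 of 12, against 17.8%). Between basal and LP, Gas1 was higher in basal (1 of 12, against 16.9%). Ndrg1 and Klf6 were higher in LP (2 of 12, against 11.2%), with Klf6 at 2411 CPM in LP and 621 in basal. Tob1, an antiproliferative gene of the BTG family, had 863, 997 and 293 CPM and, like Cdkn1a, was lowest in ML.

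Of 16 listed genes of S phase and mitosis, 5 had 100 or more counts over the 3 classes. Mki67, a marker of cycling cells, had 3 counts in basal, 0 in LP and 2 in ML. Rrm2 was the sole one past 2-fold between the classes, 4.44-fold higher in basal than in LP (2.50 to 8.49) and 8.51-fold higher than in ML cells (4.79 to 16.3). This is 1 of 5, against 16.9% of all genes for basal over LP and 15.6% for basal over ML. Pcna, the replication clamp gene, had 175, 125 and 90.5 CPM in basal, LP and ML. Over the 5 genes the median log2 ratio was -0.24 for basal against LP and 0.61 for basal against ML, where all genes had 0.16 and -0.11. Under the filter, several mitosis genes leaned to LP: Ccnb2 had 1 count in basal and 18 in LP, Birc5 8 and 20, Ccnb1 2 and 9, and Ube2c 5 and 12. Top2a, with 9 and 4 counts, leaned to basal, as did Mki67.

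For the 3 members with the widest range between classes, the genes with the nearest profile were sought among 2802 genes with 500 or more counts, as the Euclidean distance in log2(CPM + 10) over the 3 classes and the remaining cells, which are 4 groups of 1 library. For Ccnd2 these were Tgfb1i1 (distance 1.09), Pltp (1.09) and Fam129a (1.21). For Cdkn1c they were Hspb8 (1.63), Mmp2 (1.65) and Selm (1.74), and for Myc they were Gadd45b (0.345), Aldh2 (0.413) and Csrnp1 (0.586). Gadd45b had 631, 317 and 106 CPM in basal, LP and ML cells, beside 714, 307 and 132 for Myc.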

How the data were processed

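Mammary epithelial cells were captured on a 10X Genomics Chromium machine with the 3' protocol and sequenced on a NextSeq 500. The authors deposited raw UMI counts per gene and cell, made with Cell Ranger and mm10; the submitters' processing notes give version 1.2.1, and the study's methods give another release. Cells had 802 to 12967 UMIs in the total epithelium and 137 to 1946 in the sorted basal library. The members and gene lists were chosen with earlier results of these data known.

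Counts were summed per class and divided by all UMIs of the class (CPM). Exact Poisson intervals were used for levels, exact binomial (Clopper-Pearson) intervals for shares, and conditional binomial intervals for ratios, all at 95% and for counting error only. The study's tests over single cells were not used, because cells are not replicates. A gene with 0 counts was set to a floor of 3 counts for a ratio, and no ratio was formed where both classes had 3 or fewer. For shares, cells were thinned to 1000 UMIs (300 between libraries), leaving out 52 basal, 41 LP and 22 ML cells (882 sorted basal cells at 300). No doublet caller was run. Of basal cells, 26 also met the ML rule and 174 had 10 or more luminal keratin counts, and these were left out in an alternative. The ratio step was tested on simulated data, where it called 97 to 99.5% of genes changed 3-fold. These data were summed counts with Poisson noise from 1 shared profile, without spread between cells or RNA carried between classes. They say nothing on changes near the 2-fold limit. Named genes were all members, genes drawn from the up to 3 of each list with the largest ratio past 2-fold in each pair of classes, genes at issue in a count of 5 or fewer, and the 3 nearest genes of 3 members. Not every gene that met this rule is named, Zmat3 and Mxd1 being left out above. Other list genes named (Max, Mki67, Ccne2, Cdk5, Cdkn2a, Cdkn2b, Tob1, Trp53) were chosen after their values were seen. 1 listed symbol was not in the file. Gene positions and overlaps came from GENCODE vM21 (GRCm38). Python 3.11.15, numpy 2.4.6, scipy 1.17.1, pandas 2.3.3 and matplotlib 3.10.9 were used. There were 17 planned and 2 added alternatives.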

Additional observations from a re-analysis of the deposited data

How the results depend on the processing

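With 1 library per sort, no value had a replicate check. No paired analysis was possible because each group has 1 library. Of 458 gene ratios under alternatives, 405 stayed within the counting interval of the value reported, 53 moved beyond it and 0 changed the sign of a called ratio. The members past 2-fold between basal and LP (5) became 3 with cells thinned to equal depth and 3 among cells at or below the median immediate-early share, where fewer counts passed the filter. Those between LP and ML (3) became 5 at a fold of 1.5, 1 at a fold of 3 and 1 at or below the median immediate-early share (Cdkn1a). With LP limited to cells with 2 or fewer ML counts they were again 3, but Cdk4, higher in ML, stood in place of Cdkn2c. Between the basal class and the sorted basal library the count (1) became 2 with a filter of 30 counts, 2 with no filter, 2 at a fold of 1.5, 2 with rule thresholds doubled and 0 at a fold of 3. Counts over all genes were 2018, 2397, 1758 and 2764 for basal against LP, basal against ML, LP against ML and basal against sorted basal. They became 3352, 3817, 2851 and 4172 with a filter of 30 counts, 4498, 5379, 3805 and 5708 with no filter, 3446, 3879, 3356 and 4245 at a fold of 1.5, 1134, 1349, 861 and 880 at a fold of 3, and 1155, 1434, 1006 and 1218 with cells thinned. Scaling by the median of gene ratios moved the median log2 ratio of all genes by -0.21, 0.23 and 0.43 for basal against LP, LP against ML and basal against sorted basal. The highest class by share of cells was that by CPM for 9 of 10 members after thinning and 8 without it. Leaving out cells with collagen counts, and ML cells with LP genes, were chosen after the data were seen. Depth limits Cdk6, Cdkn1b and Cdkn2c most, with 62, 119 and 152 counts over the 3 classes.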

Other observations

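The 97 cells that met no class rule held members at levels of their own. Cdkn1a had 179 counts there, or 1119 CPM (961 to 1295), above each of the 3 classes. Ccnd3 had 163 CPM (106 to 238) and Cdkn1c 156 (101 to 231), and Ccnd2 had 93.8 (52.5 to 155), close to the basal level of 94.7. Cdk6 had 0 counts of 159975 UMIs, for which the exact Poisson interval reaches 23.1 CPM. Fibroblast markers summed to 8489 CPM in these cells, endothelial markers to 869 and Schwann cell markers to 750.1, 34 of the 97 had 3 or more collagen counts, the ML gene Pgr and the LP genes Elf5 and Kit were at 0, and Lyz2, a gene of myeloid cells, had 72 counts in 3 cells. Markers of several cell types were present, and the cells were not named.

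Only 8 of the 3302 total epithelial cells had UMIs of 3 or more of the mitosis genes Mki67, Top2a, Cdk1, Ccnb1, Ccnb2, Birc5, Ube2c and Cenpf, namely 2 basal, 3 LP, 2 ML and 1 remaining cell. Cdkn2c had 16 counts in 5 of them, or 325 CPM (186 to 528), against 16.6 (14.0 to 19.4) in all other cells, and 11 of the 16 counts came from 1 cell. Cdk4 had 32 counts in 7 of them, or 649.9 CPM (445 to 917) against 313 (302 to 325). Myc had 6 counts, or 122 CPM (44.7 to 265) against 353 (341 to 365), and Cdkn1b and Cdkn1c had 0. These cells were deep, with a median of 6644 UMIs against 2420.5, and came from classes with different levels, and the part of either in these values was not tested.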
